A study of Homo sapiens with 12 samples.

Results

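The genes described here are 36 genes of homologous recombination and of the Fanconi anemia pathway, measured by RNA-Seq in enzalutamide-resistant prostate cancer cells with and without knockdown of the chemokine receptor CXCR7. They were chosen by name, as genes with a textbook role in this repair system, and by a level of at least 0.5 RPKM (reads divided by gene length in kilobases and by the size of the library) in at least 3 of 12 libraries. All 36 met that level, and they make up 36 of the 14202 genes that were tested. LNCaP is a human prostate cancer cell line from a lymph node metastasis that depends on the androgen receptor, and C4-2B is a castration-resistant, bone-derived descendant of it. The study asked what the loss of CXCR7 (gene symbol ACKR3), an atypical receptor that binds the chemokine CXCL12, does to derivatives of both lines that grow in the androgen receptor antagonist enzalutamide.

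LNCaP-EnzR cells (LNCaP MDVr in the labels) were kept in 2 µM enzalutamide and C4-2B-EnzR cells (C4-2B MDVr) in 10 µM, so line and dose cannot be told apart. The sample titles also carry P23 for every LNCaP-EnzR library and P15 for every C4-2B-EnzR library, which cannot be told apart from line either. Each line was infected with a control pLKO lentivirus (LKO) or with a lentivirus carrying a hairpin against CXCR7 (shCXCR7), and RNA was taken 4 days after infection. The study names 2 hairpins against CXCR7, and which of them these libraries carry is not given in the sources used here. There were 3 libraries in each of the 4 groups. Nothing in the sources says that the 3 came from separate cultures, so the p-values measure the spread between these libraries, which may be technical. The paper describes triplicate RNA-Seq for LNCaP-EnzR but duplicate RNA-Seq for C4-2B-EnzR, and which C4-2B-EnzR libraries it used is not given. Whole cultures were sequenced, so fewer cells of a kind and less RNA per cell cannot be told apart.

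Homologous recombination repairs DNA double-strand breaks by copying an intact sister chromatid, and is therefore used mainly in S and G2 phase. The Fanconi anemia pathway removes covalent crosslinks between DNA strands: a core complex attaches ubiquitin to the FANCD2-FANCI clamp, the crosslink is cut, and the break that results is repaired by recombination. Inherited or acquired loss of BRCA2, BRCA1, ATM or PALB2 occurs in part of advanced prostate cancers and is linked to response to PARP inhibitors.

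Each library held from 6380395 to 9831807 reads in genes, recovered from the RPKM steps, and a member was covered by at least 13 reads in every library. ACKR3 was at 83.3, 86.5 and 85.9 RPKM in the 3 C4-2B-EnzR LKO libraries and at 22.2, 23.7 and 18.9 with shCXCR7, and at 124, 119 and 113 against 56.3, 51.2 and 40 RPKM in LNCaP-EnzR. It fell by 1.97 on the log2 scale in C4-2B-EnzR (SE 0.09, limma adjusted p = 0.000109) and by 1.28 in LNCaP-EnzR (SE 0.13, limma adjusted p = 0.000175). LNCaP-EnzR shCXCR7 replicate 3 stood apart: its RPKM summed to 104626, against 243937 to 281912 in the others, and 1636 genes were at 0 in it, against 8719 to 9652. In 5096 genes at 0 in the other 11 libraries it had a median of 0.234 RPKM. All 12 luminal prostate epithelium markers were expressed in every library (KLK2 lowest, at 1.03 RPKM). Of the lists for other cell types, 4 of 7 basal, 6 of 8 fibroblast, 8 of 8 blood and 5 of 5 endothelial markers were at 0.272 RPKM or less as deposited outside LNCaP-EnzR shCXCR7 replicate 3. The exceptions were the basal ITGB4 (0.481 to 13.2 RPKM), LAMB3 (0.102 to 1.86) and DST (0.457 to 0.856), and the fibroblast COL1A1 (3.56 to 11.2) and PDGFRB (0.0362 to 0.755), of which PDGFRB rose in both lines. The keratins KRT5, KRT14 and KRT15 reached 0.645, 0.548 and 0.777 RPKM in that library. In C4-2B-EnzR, LKO replicate 1 was the lowest control library for 31 of the 36 members, against 42.3% of all genes tested. Member calls that changed without one of these 2 libraries are given both ways.

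In C4-2B-EnzR, 25 of the 36 members fell after CXCR7 knockdown, 1 rose (RAD50), and 10 did not pass the test (limma, Benjamini-Hochberg adjusted p under 0.05). Of all 14202 genes tested in this line, 19.3% fell and 19.3% rose. The median log2 fold change was -0.68 over the members and 0.0 over all genes. In LNCaP-EnzR, 8 members fell, 2 rose (FANCM and BARD1), and 26 did not pass, with a median of 0.0, while 18.7% of all genes fell and 14.4% rose. The 8 that fell in LNCaP-EnzR (FANCC, FANCE, UBE2T, FANCD2, BRCA1, RAD51C, RMI2 and ATR) were all among the 25 that fell in C4-2B-EnzR, 8 of 8 of one list and 8 of 25 of the other. Over all 14202 genes, 1505 (10.6%) fell in both lines, of 2654 that fell in LNCaP-EnzR and 2746 that fell in C4-2B-EnzR. In C4-2B-EnzR 13 members fell by at least 1 on the log2 scale, against 3.58% of all genes, and in LNCaP-EnzR only RAD51C did, against 2.5%.

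In 28 members all 3 shCXCR7 libraries of C4-2B-EnzR lay below all 3 LKO libraries, and in 3 (FANCF, NBN and RAD50) they lay above, against 26.0% and 26.5% of all genes. In LNCaP-EnzR these counts were 10 and 3, against 25.4% and 22.2%. Without LKO replicate 1, 29 members fell in C4-2B-EnzR by limma and none passed as higher, against 20.5% and 18.7% of all genes. With all libraries, 3 were higher at an unadjusted p under 0.05 and 2 with voom, against 3471 and 3033 of all 14202 genes. Without shCXCR7 replicate 3, 9 members fell in LNCaP-EnzR, among them the same 8, and 5 rose, against 21.0% and 20.0% of all genes. The LNCaP-EnzR counts moved with the other libraries too: 2, 3 and 1 members fell without LKO replicates 1, 2 and 3, and 4 and 1 without shCXCR7 replicates 1 and 2. The shares of all genes that fell were 14.2%, 13.2%, 13.5%, 16.2% and 15.8% in these 5 fits, and the shares that rose were 10.2%, 9.63%, 9.69%, 11.1% and 10.1%. RAD51C alone was called in LNCaP-EnzR whichever library was left out. With voom, limma's model for counts, on the recovered reads, 28 members fell and 2 rose in C4-2B-EnzR (21.6% and 21.4% of all genes), and 9 fell and 3 rose in LNCaP-EnzR (19.6% and 16.1%). At a limit of 2-fold and an adjusted p under 0.001, 6 members fell in C4-2B-EnzR against 1.81% of all genes, and RAD51C alone fell in LNCaP-EnzR against 2.01%. On the LNCaP-EnzR values as deposited, without rescaling, 0 members passed the test in either direction (limma, 5 lower and 0 higher at an unadjusted p under 0.05), against 2.56% of all genes lower and 1.94% higher. At that unadjusted limit 1365 of all 14202 genes were lower and 684 higher.

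**Figure D1:**
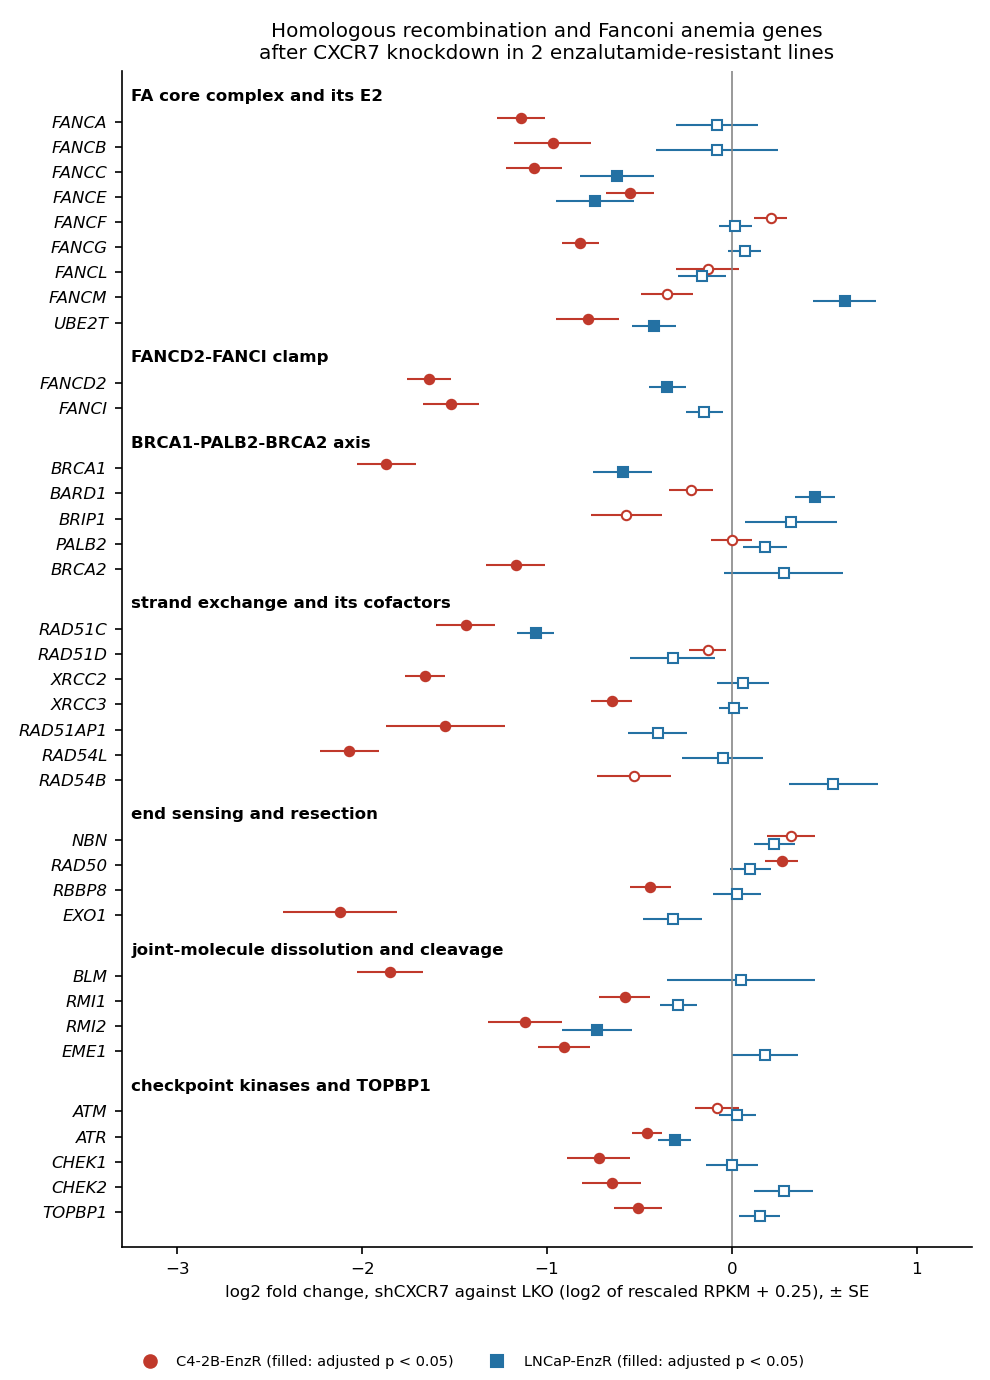
Log2 fold change (x axis, log2 of rescaled RPKM + 0.25) of each of the 36 members (y axis, grouped by role) between 3 shCXCR7 and 3 LKO libraries, with bars for the SE, circles for C4-2B-EnzR and squares for LNCaP-EnzR, filled where the limma adjusted p is under 0.05. The C4-2B-EnzR points run from -2.12 for EXO1 to 0.32 for NBN, and the LNCaP-EnzR points from -1.06 for RAD51C to 0.61 for FANCM.

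Many genes of S phase carry binding sites for E2F transcription factors close to their start, so the members' promoters were searched for the E2F words TTTCCCGC, TTTGGCGC, TTTCGCGC and TTTGCCGC on both strands. RefSeq windows from 250 bases before to 50 bases after the start (GRCh38.p14) were at hand for 32 members, 10 of which had more than 1 window. A word was found in 7 of the 32 (21.9%): FANCA, FANCC, FANCD2, XRCC2, EXO1, RMI1 and TOPBP1. It was found in 6.53% of the 9997 tested genes with a window. Counted by window, it was in 7 of the members' 43 (16.3%) and in 3.31% of all 35116. The 35116 were not limited to tested genes, so the 6.53% is the nearer comparison. All 7 belong to the 23 searched members that fell in C4-2B-EnzR (30.4%), and 0 of the 8 that did not pass the test there held a word. With so few members this split was not tested. The median log2 fold change in C4-2B-EnzR was -1.14 over the 7 members with a word and -0.65 over the 25 without. In LNCaP-EnzR the corresponding medians were -0.29 and 0.02. Over all tested genes the C4-2B-EnzR medians were -0.06 with a word and 0.01 without. CCAAT, the NF-Y word, was in 46.9% of the members and 43.1% of tested genes, and the CHR words TTTGAA and TTTAAA in 18.8% and 20.6%. The members' C4-2B-EnzR median was also lower with a CHR word (-0.93) than without (-0.65), while with and without CCAAT it was -0.65 and -0.82. A word match is a description of the sequence and was not tested as a binding site.

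The stretches from 100 bases before to 30 bases after the start are shown for the 3 members with a word and the lowest log2 fold change in C4-2B-EnzR, and for PALB2, the member nearest to no change there. Capitals mark the E2F word as read on either strand, and all are written 5′ to 3′ along the gene. They lie at chr1:241848104-241848233 (plus strand), chr7:152676112-152676241 (minus), chr3:10026337-10026466 (plus) and chr16:23641281-23641410 (minus) of GRCh38.p14.
EXO1: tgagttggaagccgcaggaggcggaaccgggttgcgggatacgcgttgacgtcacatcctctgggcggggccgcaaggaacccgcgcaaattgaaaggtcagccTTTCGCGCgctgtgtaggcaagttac
XRCC2: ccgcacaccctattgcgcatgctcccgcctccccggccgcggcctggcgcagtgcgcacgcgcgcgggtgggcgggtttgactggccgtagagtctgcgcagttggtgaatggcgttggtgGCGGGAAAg
FANCD2: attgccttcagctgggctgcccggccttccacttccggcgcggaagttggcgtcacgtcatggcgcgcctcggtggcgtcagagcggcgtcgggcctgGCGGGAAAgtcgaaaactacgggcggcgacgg
PALB2: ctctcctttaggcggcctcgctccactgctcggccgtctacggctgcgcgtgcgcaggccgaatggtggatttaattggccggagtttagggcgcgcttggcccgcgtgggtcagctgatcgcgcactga
In FANCD2 the word begins at base -2 from the start and is read on the opposite strand. In XRCC2 it begins at base 22, also on the opposite strand, and in EXO1 at base 5 on the strand of the gene. The PALB2 window held none of the E2F words. RAD54L, BRCA1 and BLM held none in any window either. Their log2 fold changes in C4-2B-EnzR (-2.07, -1.87 and -1.85) were lower than those of XRCC2 (-1.66) and FANCD2 (-1.64).

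The Fanconi core complex is a ubiquitin ligase with FANCL as its catalytic subunit, FANCA, FANCB, FANCC, FANCE, FANCF and FANCG as structural partners, and FANCM as the DNA translocase that brings it to damage, while UBE2T is the ubiquitin-conjugating enzyme that works with it. Of these 9 genes, 6 fell in C4-2B-EnzR, against 19.3% of all genes. The largest fall was that of FANCA (chr16:89726683-89816977, minus strand, GENCODE 44). FANCA stood at 3.87, 3.85 and 4.1 RPKM in the C4-2B-EnzR LKO libraries and at 1.61, 1.99 and 1.41 with shCXCR7. The groups do not overlap, and the fall was 1.14 on the log2 scale (SE 0.13, limma adjusted p = 0.00127). In LNCaP-EnzR, FANCA was at 1.78, 1.77 and 1.6 RPKM with LKO and at 1.43, 1.2 and 2.4 with shCXCR7. The shCXCR7 value above the controls is that of replicate 3, and the log2 fold change was -0.08 (SE 0.22) with it and -0.34 (SE 0.12, limma adjusted p = 0.0725) without it.

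FANCE (chr6:35452338-35467104, plus strand), which links FANCD2 to the core, had the largest fall of this group in LNCaP-EnzR. Its levels there were 3.19, 4.26 and 3.91 RPKM with LKO and 1.71, 1.83 and 3.13 with shCXCR7, and fell by 0.74 on the log2 scale (SE 0.21, limma adjusted p = 0.0233). Replicate 3 is again the highest shCXCR7 library, just under the lowest control, and without it the log2 fold change was -1.0 (limma adjusted p = 0.00565). In C4-2B-EnzR FANCE was at 3.81, 4.0 and 4.04 RPKM with LKO and at 2.25, 3.18 and 2.51 with shCXCR7, and fell by 0.55 (SE 0.13, limma adjusted p = 0.0183). FANCC fell in both lines, with log2 fold changes of -1.07 in C4-2B-EnzR and -0.62 in LNCaP-EnzR, and so did UBE2T, with -0.78 and -0.42. FANCB (-0.97) and FANCG (-0.82) fell in C4-2B-EnzR, while their log2 fold changes of -0.08 and 0.07 in LNCaP-EnzR did not pass the test.

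The other 3 genes of the core group did not pass the test in C4-2B-EnzR. FANCF had a log2 fold change of 0.21 there and 0.02 in LNCaP-EnzR, and FANCL of -0.13 and -0.16. FANCM had -0.35 in C4-2B-EnzR (SE 0.14, limma adjusted p = 0.0844), where it fell by 0.48 without LKO replicate 1 (limma adjusted p = 0.0177) and by 0.38 with voom (adjusted p = 0.0334). FANCM rose by 0.61 in LNCaP-EnzR (SE 0.17, limma adjusted p = 0.0246), from 0.77 ± 0.0418 to 1.3 ± 0.0545 RPKM (mean ± SD, n = 3). The direction of FANCM was the same in all 3 LNCaP-EnzR shCXCR7 libraries, at 1.35, 1.24 and 1.32 RPKM.

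FANCD2 and FANCI form the clamp that the core complex ubiquitinates on DNA, and both fell in C4-2B-EnzR (against 19.3% of all genes). FANCD2 (chr3:10026370-10101932, plus strand) was at 5.0, 5.48 and 5.97 RPKM in C4-2B-EnzR LKO and at 1.51, 1.81 and 1.47 with shCXCR7, and fell by 1.64 (SE 0.12, limma adjusted p = 0.000257). The LNCaP-EnzR libraries were at 3.0, 2.67 and 2.92 RPKM with LKO and at 2.2, 2.15 and 2.21 with shCXCR7, and FANCD2 fell by 0.35 (SE 0.1, limma adjusted p = 0.0303). In neither line do the groups overlap. FANCI (chr15:89243945-89317261, plus strand) was at 12.1, 14.6 and 17.3 RPKM in C4-2B-EnzR LKO and at 4.41, 5.52 and 4.86 with shCXCR7, and fell by 1.52 (SE 0.15, limma adjusted p = 0.000681). In LNCaP-EnzR its libraries overlapped, at 4.22, 4.12 and 3.98 RPKM with LKO and 3.82, 3.28 and 3.99 with shCXCR7 (log2 fold change -0.15, SE 0.1, limma adjusted p = 0.307).

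BRCA1 and its partner BARD1 form a ubiquitin ligase that directs broken ends to recombination, BRIP1 is a helicase bound to BRCA1, and PALB2 bridges BRCA1 to BRCA2, which acts at the resected single strand. BRCA1 (chr17:43044295-43170245, minus strand) fell in both lines. It was at 3.98, 5.19 and 5.99 RPKM in C4-2B-EnzR LKO and at 1.07, 1.27 and 1.22 with shCXCR7, and fell by 1.87 (SE 0.16, limma adjusted p = 0.00047). BRCA1 in LNCaP-EnzR was at 1.73, 1.59 and 1.83 RPKM with LKO and at 1.05, 0.883 and 1.25 with shCXCR7, and fell by 0.59 (SE 0.16, limma adjusted p = 0.0221). After knockdown the highest library lay under the lowest control in each line.

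BRCA2 (chr13:32315086-32400268, plus strand) fell in C4-2B-EnzR, from 3.24, 4.53 and 4.83 RPKM to 1.8, 1.71 and 1.62 (fell by 1.17, SE 0.16, limma adjusted p = 0.00223). In LNCaP-EnzR it was low in all libraries, at 0.463, 0.321 and 0.341 RPKM with LKO and 0.46, 0.395 and 0.692 with shCXCR7, and the groups overlap (log2 fold change 0.28, SE 0.32, limma adjusted p = 0.547). Without replicate 3, in which it was highest, the LNCaP-EnzR value was 0.13. BARD1 (chr2:214725646-214809683, minus strand) was at 22.3, 27.9 and 29.3 RPKM in C4-2B-EnzR LKO and at 21.1, 25.0 and 21.9 with shCXCR7, which overlap (log2 fold change -0.22, SE 0.12, limma adjusted p = 0.195). Without LKO replicate 1, its lowest control library, BARD1 fell by 0.34 in C4-2B-EnzR (limma adjusted p = 0.0298). In LNCaP-EnzR all 3 shCXCR7 libraries, at 8.75, 7.97 and 7.18 RPKM, lay above the LKO libraries at 6.34, 5.12 and 5.81, and BARD1 rose by 0.45 (SE 0.11, limma adjusted p = 0.0118). BRIP1 had log2 fold changes of -0.57 in C4-2B-EnzR (limma adjusted p = 0.0524) and 0.32 in LNCaP-EnzR, and PALB2 of 0.0 and 0.18, none of which passed the test. BRIP1 fell by 0.7 in C4-2B-EnzR without LKO replicate 1 (limma adjusted p = 0.0358) and by 0.71 with voom (adjusted p = 0.00824).

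**Figure D2:**
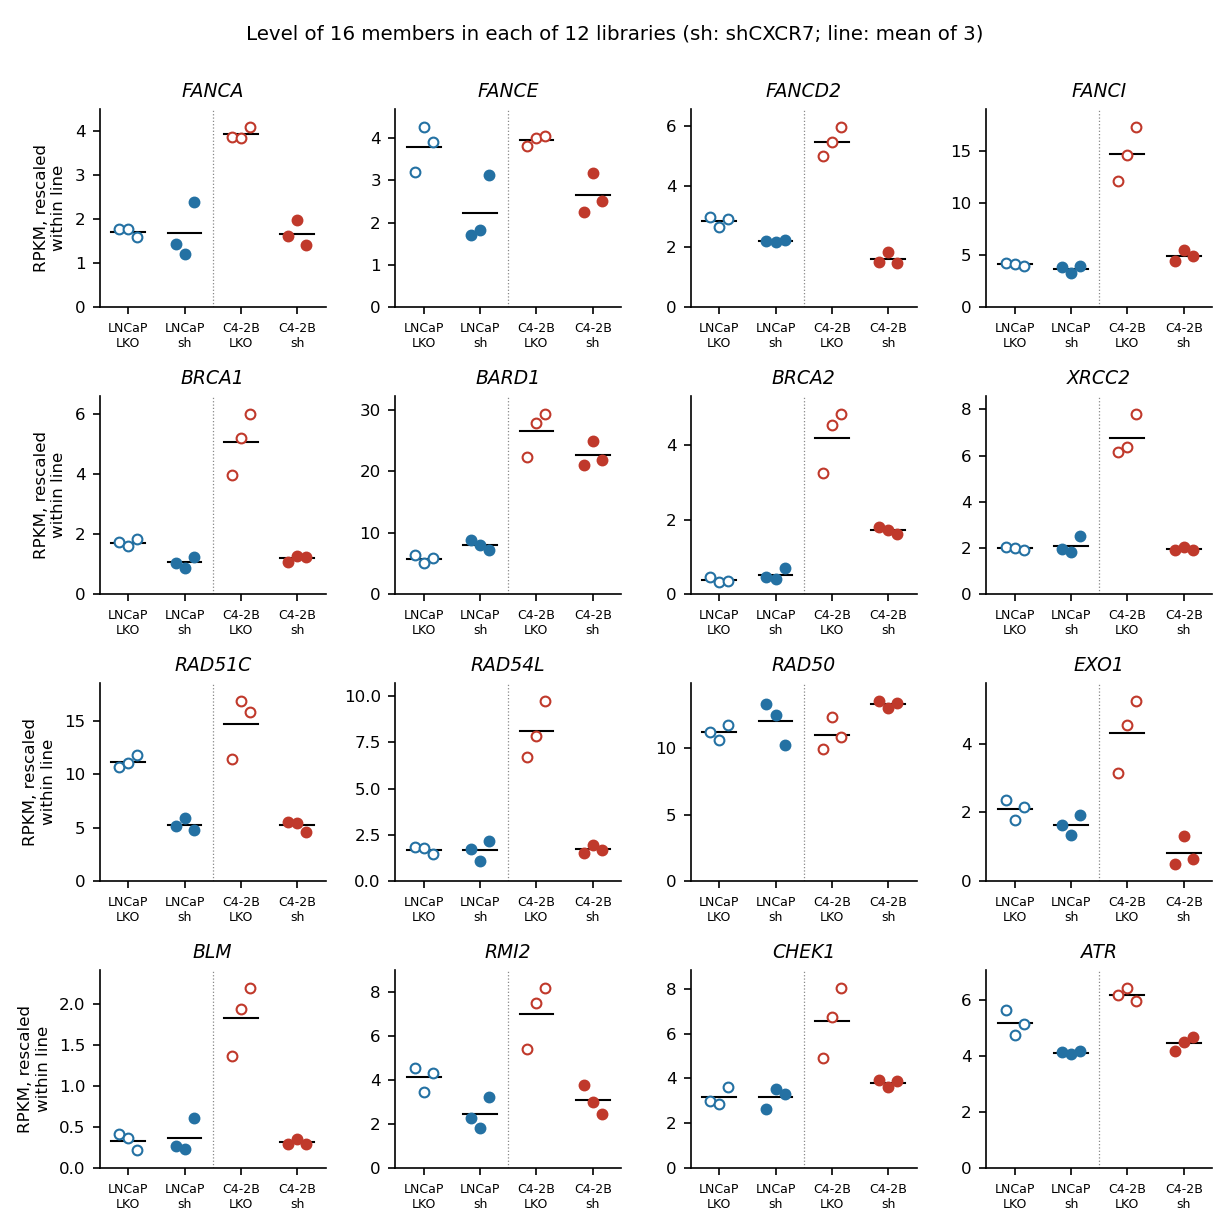
RPKM rescaled within each line (y axes, from 0) of 16 members in each of the 12 libraries, by line and vector (x axes), with open circles for LKO, filled circles for shCXCR7 and a line for the mean of 3. For RAD54L the C4-2B-EnzR shCXCR7 libraries lie between 1.52 and 1.97 RPKM, under the LKO libraries at 6.73 to 9.72, while the LNCaP-EnzR groups overlap, and for RAD51C the groups are apart in both lines.

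RAD51C, RAD51D, XRCC2 and XRCC3 form complexes that help recombination filaments assemble on DNA, RAD51AP1 stimulates strand exchange, and RAD54L and RAD54B are motor proteins that open the duplex. Of these 7, 5 fell in C4-2B-EnzR and 1 in LNCaP-EnzR, against 19.3% and 18.7% of all genes. RAD54L (chr1:46246461-46278480, plus strand) had the largest fall in C4-2B-EnzR, from 6.73, 7.84 and 9.72 RPKM to 1.52, 1.97 and 1.7 (fell by 2.07, SE 0.16, limma adjusted p = 0.000315). In LNCaP-EnzR its libraries overlapped, at 1.83, 1.78 and 1.47 RPKM with LKO and 1.76, 1.09 and 2.18 with shCXCR7 (log2 fold change -0.05, SE 0.22, limma adjusted p = 0.888). XRCC2 (chr7:152644776-152676193, minus strand) was the same kind of case. It went from 6.15, 6.39 and 7.79 RPKM to 1.9, 2.05 and 1.93 in C4-2B-EnzR (fell by 1.66, SE 0.11, limma adjusted p = 0.000214). In LNCaP-EnzR it was at 2.06, 1.99 and 1.91 RPKM with LKO and at 1.96, 1.81 and 2.51 with shCXCR7 (log2 fold change 0.06, SE 0.14, limma adjusted p = 0.792).

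RAD51C (chr17:58692573-58735611, plus strand) fell in both lines. It was at 11.4, 16.8 and 15.8 RPKM in C4-2B-EnzR LKO and at 5.56, 5.43 and 4.63 with shCXCR7, and fell by 1.44 (SE 0.16, limma adjusted p = 0.0011). In LNCaP-EnzR it was at 10.7, 11.0 and 11.8 RPKM with LKO and at 5.12, 5.86 and 4.74 with shCXCR7, and fell by 1.06 (SE 0.1, limma adjusted p = 9.07e-05). The groups were apart in both lines, and shCXCR7 replicate 3 of LNCaP-EnzR lay with its group for this gene. RAD51AP1 fell by 1.55 in C4-2B-EnzR (SE 0.32, limma adjusted p = 0.0102) and had -0.4 in LNCaP-EnzR (limma adjusted p = 0.0906). XRCC3 fell by 0.65 in C4-2B-EnzR and had 0.01 in LNCaP-EnzR, and 5756 of the 7507 bases of its exons overlap those of KLC1 on the other strand, so that reads of both could have been mixed if strand was not used in counting. RAD51D had -0.13 in C4-2B-EnzR and -0.32 in LNCaP-EnzR, and RAD54B had -0.53 and 0.55, none of which passed the test. Of the 5319 exonic bases of RAD54B, 3511 overlap those of FSBP on the same strand, so its reads could have been split in counting. In C4-2B-EnzR RAD54B fell by 0.73 without LKO replicate 1 (limma adjusted p = 0.0123) and by 0.63 with voom (adjusted p = 0.0186), and with voom it rose by 0.79 in LNCaP-EnzR (adjusted p = 0.00619). Without shCXCR7 replicate 3, RAD51D fell by 0.59 (limma adjusted p = 0.0409) and RAD54B rose by 0.57 (limma adjusted p = 0.0308) in LNCaP-EnzR.

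At a broken end, RAD50 and NBN work in the MRN complex that senses it, RBBP8 (CtIP) starts to trim one strand, and the exonuclease EXO1 extends the trimming. In C4-2B-EnzR RAD50 rose, EXO1 and RBBP8 fell, and NBN did not pass the test. MRE11A, the MRN gene that is not among the members, had a log2 fold change of -0.245 there. EXO1 (chr1:241847967-241895148, plus strand) was at 3.14, 4.53 and 5.23 RPKM with LKO and at 0.514, 1.31 and 0.65 with shCXCR7, and its fall by 2.12 was the largest of all members (SE 0.31, limma adjusted p = 0.00281). RAD50 (chr5:132556019-132646349, plus strand) was at 9.92, 12.3 and 10.8 RPKM with LKO and at 13.5, 13.0 and 13.4 with shCXCR7, and rose by 0.27 (SE 0.09, limma adjusted p = 0.0486). That call was lost when any of the 6 libraries but LKO replicate 2 was left out (with a log2 fold change of 0.2 without LKO replicate 1). NBN had 0.32 (SE 0.13, limma adjusted p = 0.0991, and 0.33 with an adjusted p of 0.0308 with voom), with its shCXCR7 libraries at 15.2 to 15.6 RPKM against 9.91 to 14.1, and RBBP8 fell by 0.44 (limma adjusted p = 0.0231).

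None of these 4 members passed the test in LNCaP-EnzR (limma, 0 also at an unadjusted p under 0.05 and 0 with voom on recovered reads). By the adjusted test 18.7% of all genes fell in this line and 14.4% rose. EXO1 was at 2.35, 1.78 and 2.15 RPKM there with LKO and at 1.62, 1.34 and 1.93 with shCXCR7, which overlap through replicate 3 (log2 fold change -0.32, SE 0.16, limma adjusted p = 0.164). RAD50 was at 11.2, 10.6 and 11.7 RPKM with LKO and at 13.3, 12.5 and 10.2 with shCXCR7, with replicate 3 the lowest of the 6 (log2 fold change 0.1, SE 0.11, limma adjusted p = 0.539). Without that library RAD50 rose by 0.21 (limma adjusted p = 0.048). NBN had 0.23 and RBBP8 0.03. Most of the exonic length of RAD50 is shared with a read-through gene on the same strand (8124 of 10565 bases), so its reads could have been split in counting.

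The helicase BLM with RMI1 and RMI2 separates joined DNA molecules without crossing over, and EME1 is the partner of the nuclease MUS81 that cuts them. All 4 fell in C4-2B-EnzR, against 19.3% of all genes. BLM (chr15:90717346-90816166, plus strand) was at 1.37, 1.94 and 2.19 RPKM with LKO and at 0.301, 0.362 and 0.293 with shCXCR7, and fell by 1.85 (SE 0.18, limma adjusted p = 0.00075). In LNCaP-EnzR BLM was low in every library, at 0.417, 0.365 and 0.222 RPKM with LKO and 0.267, 0.233 and 0.614 with shCXCR7. Replicate 3 is the highest of these 6 values, and the log2 fold change was 0.05 (SE 0.4, limma adjusted p = 0.937) with it and -0.22 without it.

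RMI2 (chr16:11249619-11381662, plus strand) fell in both lines, from 5.41, 7.47 and 8.15 RPKM to 3.79, 3.01 and 2.47 in C4-2B-EnzR (fell by 1.12, SE 0.2, limma adjusted p = 0.00621). In LNCaP-EnzR it went from 4.56, 3.47 and 4.33 RPKM to 2.28, 1.81 and 3.24, with replicate 3 just under the controls (fell by 0.73, SE 0.19, limma adjusted p = 0.018). Without that library it fell by 0.94 (limma adjusted p = 0.00984). RMI1 fell by 0.58 in C4-2B-EnzR and had -0.29 in LNCaP-EnzR (limma adjusted p = 0.0622, and 0.0427 with voom). EME1 fell by 0.91 in C4-2B-EnzR and had 0.18 in LNCaP-EnzR.

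ATM and ATR are the kinases that signal double-strand breaks and stalled forks, CHEK2 and CHEK1 are the kinases they act on, and TOPBP1 activates ATR. ATM (chr11:108223044-108369102, plus strand) did not pass the test in either line. It was at 4.97, 5.16 and 3.95 RPKM in C4-2B-EnzR LKO and at 4.27, 4.15 and 4.78 with shCXCR7 (log2 fold change -0.08, SE 0.12, limma adjusted p = 0.628). In LNCaP-EnzR it was at 4.83, 4.07 and 4.17 RPKM with LKO and at 4.5, 4.5 and 4.33 with shCXCR7 (log2 fold change 0.03, SE 0.1, limma adjusted p = 0.839). The groups overlap in both lines.

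ATR (chr3:142449007-142578733, minus strand) fell in both. In C4-2B-EnzR it went from 6.2, 6.42 and 5.98 RPKM to 4.18, 4.5 and 4.69 (fell by 0.46, SE 0.08, limma adjusted p = 0.00564). In LNCaP-EnzR it went from 5.66, 4.75 and 5.15 RPKM to 4.14, 4.08 and 4.17 (fell by 0.31, SE 0.09, limma adjusted p = 0.0322). Its groups do not overlap in either line. CHEK1 (chr11:125625163-125676255, plus strand) fell in C4-2B-EnzR, from 4.9, 6.72 and 8.01 RPKM to 3.93, 3.62 and 3.88 (fell by 0.72, SE 0.17, limma adjusted p = 0.0176). In LNCaP-EnzR its libraries overlapped, at 3.0, 2.85 and 3.61 RPKM with LKO and 2.64, 3.51 and 3.31 with shCXCR7, with means of 3.15 ± 0.402 and 3.15 ± 0.455 (SD, n = 3). CHEK2 (-0.65) and TOPBP1 (-0.51) fell in C4-2B-EnzR, and their log2 fold changes of 0.28 and 0.15 in LNCaP-EnzR did not pass the test. Without shCXCR7 replicate 3, TOPBP1 rose by 0.26 in LNCaP-EnzR (limma adjusted p = 0.0217).

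The effect of the knockdown was then compared between the lines, as the difference of the log2 fold changes over all 12 libraries. For 17 of the 36 members it was lower in C4-2B-EnzR, and for 0 it was higher (limma, adjusted p under 0.05). At an unadjusted p under 0.05 the counts were 22 and 0, against 1666 and 2026 of all 14202 genes. With voom on recovered reads they were 19 and 0, against 782 and 838. On the values as deposited, without rescaling, RAD54L alone was lower and 0 were higher, against 0.232% and 0.141% of all genes. At an unadjusted p under 0.05, 11 members were lower and 0 higher on these values, against 390 and 682 of all 14202 genes. Of all genes tested after rescaling, 4.87% were lower and 5.15% higher by this test. The median difference was -0.69 over the members and 0.01 over all genes. RAD54L differed most, by -2.02 (SE 0.28, limma adjusted p = 0.00137), followed by BLM at -1.91, EXO1 at -1.8, XRCC2 at -1.72 and BRCA2 at -1.45. XRCC2, FANCD2 (difference -1.29) and FANCI (-1.37) had the lowest limma adjusted p, at 0.000298, 0.000486 and 0.000955.

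By role, the difference was called for FANCA, FANCG and FANCM of the core group, for both clamp genes, and for BRCA1, BARD1 and BRCA2. It was called for XRCC2, XRCC3, RAD54L and RAD54B of the strand exchange group, for EXO1, BLM and EME1, and for CHEK2 and TOPBP1. FANCM and BARD1 are in this list with log2 fold changes of -0.35 and -0.22 in C4-2B-EnzR that did not pass the test and rises in LNCaP-EnzR, and RAD54B passed the test in neither line. For the members that fell in both lines the difference was called for FANCD2 and BRCA1 and not for FANCC, FANCE, UBE2T, RAD51C, RMI2 and ATR, whose differences ran from -0.46 to 0.19. Without LNCaP-EnzR shCXCR7 replicate 3, 18 members were lower, RBBP8 being added (against 5.89% of all genes, with 5.36% higher), and without C4-2B-EnzR LKO replicate 1, 21 were, with RBBP8, CHEK1, RAD51AP1 and RAD51C added (against 5.39%, with 5.25% higher). ACKR3 itself fell further in C4-2B-EnzR (difference -0.7, SE 0.17, limma adjusted p = 0.0198), and its part in these differences was not tested.

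The levels before knockdown were compared in the 6 LKO libraries, rescaled together. In these, 27 of the 36 members were higher in C4-2B-EnzR and 2 were lower (FANCF and RAD50), while 31.4% of all genes were higher and 30.6% lower (limma, adjusted p under 0.05). The median log2 difference was 0.8 over the members and 0.0 over all genes. BRCA2 differed most, at 3.1, 4.31 and 4.58 RPKM in C4-2B-EnzR against 0.531, 0.366 and 0.392 in LNCaP-EnzR (log2 difference 2.63, SE 0.18, limma adjusted p = 3.38e-05). BARD1 came next, at 21.4, 26.6 and 27.7 RPKM against 7.27, 5.85 and 6.68 (log2 difference 1.89, SE 0.12, limma adjusted p = 2.79e-05). For both genes every C4-2B-EnzR library was above every LNCaP-EnzR library.

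RAD54L (1.85), BLM (1.65), FANCI (1.5), XRCC2 (1.4), CHEK2 (1.34) and TOPBP1 (1.27) followed in the size of the log2 difference between the LKO libraries. FANCF was lower in C4-2B-EnzR by a log2 difference of -0.43 (limma adjusted p = 0.00566) and RAD50 by -0.29 (limma adjusted p = 0.0295). FANCE, UBE2T, PALB2, RAD51C, NBN, ATM and ATR did not pass the test, and of these ATR had the difference nearest to 0, at -0.01 (SE 0.09). Without C4-2B-EnzR LKO replicate 1, 29 members were higher, with NBN and RAD51C added, and FANCF alone was lower. In that fit 4550 of all 14202 genes were higher and 4373 lower. The knockdown comparison in C4-2B-EnzR uses the same 3 LKO libraries as this one, so a library that is high or low for a gene enters both.

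**Figure D3:**
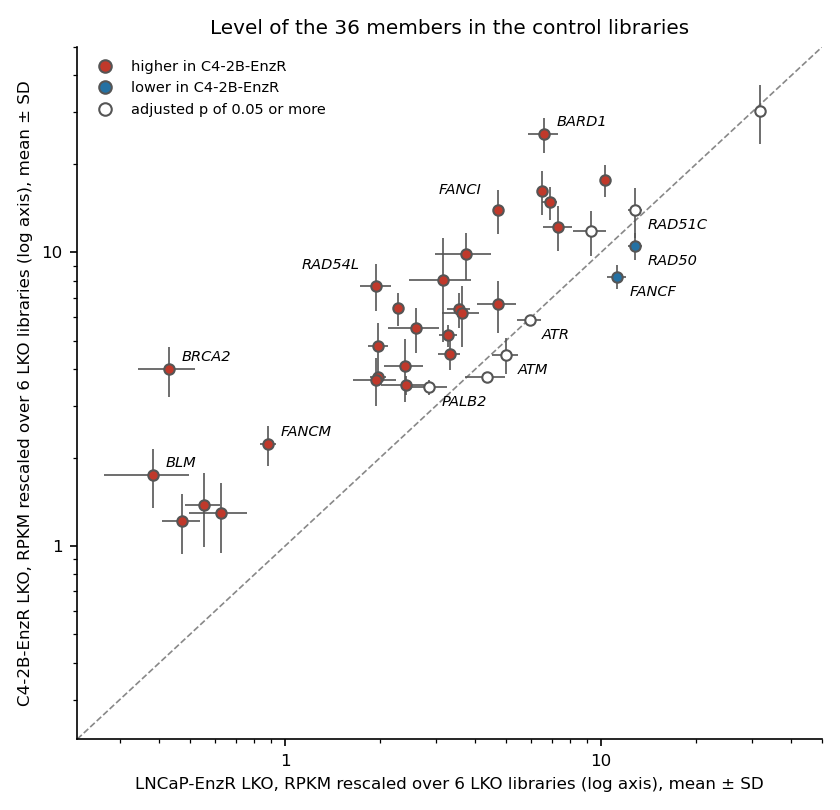
Mean RPKM of the 36 members in 3 LNCaP-EnzR LKO (x axis) and 3 C4-2B-EnzR LKO libraries (y axis), rescaled over the 6 libraries, on log axes with bars for the SD and a dashed line of equal levels. The 27 red points are higher in C4-2B-EnzR and the 2 blue points, FANCF and RAD50, are lower (limma adjusted p under 0.05), with BRCA2 farthest from the line at 0.43 ± 0.0887 against 3.99 ± 0.786 RPKM.

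Genes of the same pathway that are not among the 36 were counted beside them. Of 58 other tested homologous recombination and Fanconi genes, 19 fell and 2 rose in C4-2B-EnzR (median log2 fold change -0.14), and 7 fell and 4 rose in LNCaP-EnzR (median -0.04). The falls are 32.8% and 12.1% of the 58, against 19.3% and 18.7% of all genes. The largest changes called in C4-2B-EnzR were those of CLSPN, which relays ATR signals to CHEK1 (log2 fold change -1.96, SE 0.18), POLQ, the polymerase of microhomology-mediated joining (-1.65, SE 0.14), and C17orf53, a loader of the MCM8-MCM9 helicase (-1.6, SE 0.12). In LNCaP-EnzR these 3 had -0.49, -0.14 and -0.23, none of which passed the test.

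For the other repair lists the shares of all genes are 19.3% lower and 19.3% higher in C4-2B-EnzR, and 18.7% and 14.4% in LNCaP-EnzR. Of 10 genes of non-homologous end joining 3 fell and 1 rose in C4-2B-EnzR, and 4 fell and 1 rose in LNCaP-EnzR. POLL, a gap-filling polymerase, fell in both (log2 fold changes of -0.99 in C4-2B-EnzR and -0.85 in LNCaP-EnzR), the ligase LIG4 fell in both (-0.74 and -1.06), and its partner XRCC4 rose in both (0.86 and 0.77). Of 7 mismatch repair genes 0 fell and 0 rose in C4-2B-EnzR (limma, 0 at an unadjusted p under 0.05 and 0 with voom on recovered reads), and 1 fell and 2 rose in LNCaP-EnzR. Without C4-2B-EnzR LKO replicate 1, 2 of the 7 mismatch repair genes and 5 of the 10 end joining genes fell in that line. In that fit 20.5% of all genes fell. Of 23 genes of base excision and single-strand break repair 10 fell and 1 rose in C4-2B-EnzR, and 8 fell and 5 rose in LNCaP-EnzR. The flap nuclease FEN1 fell in both lines (-1.74 in C4-2B-EnzR and -0.38 in LNCaP-EnzR), as did the ligase LIG1 (-1.33 and -0.63), while the glycosylase NEIL3 fell in C4-2B-EnzR (-1.36) and had 0.05 in LNCaP-EnzR. Of 20 nucleotide excision repair genes 1 fell and 5 rose in C4-2B-EnzR, with CDK7 (0.88), CETN2 (0.81) and GTF2H5 (0.61) the largest rises, and 6 fell and 2 rose in LNCaP-EnzR.

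**Figure D4:**
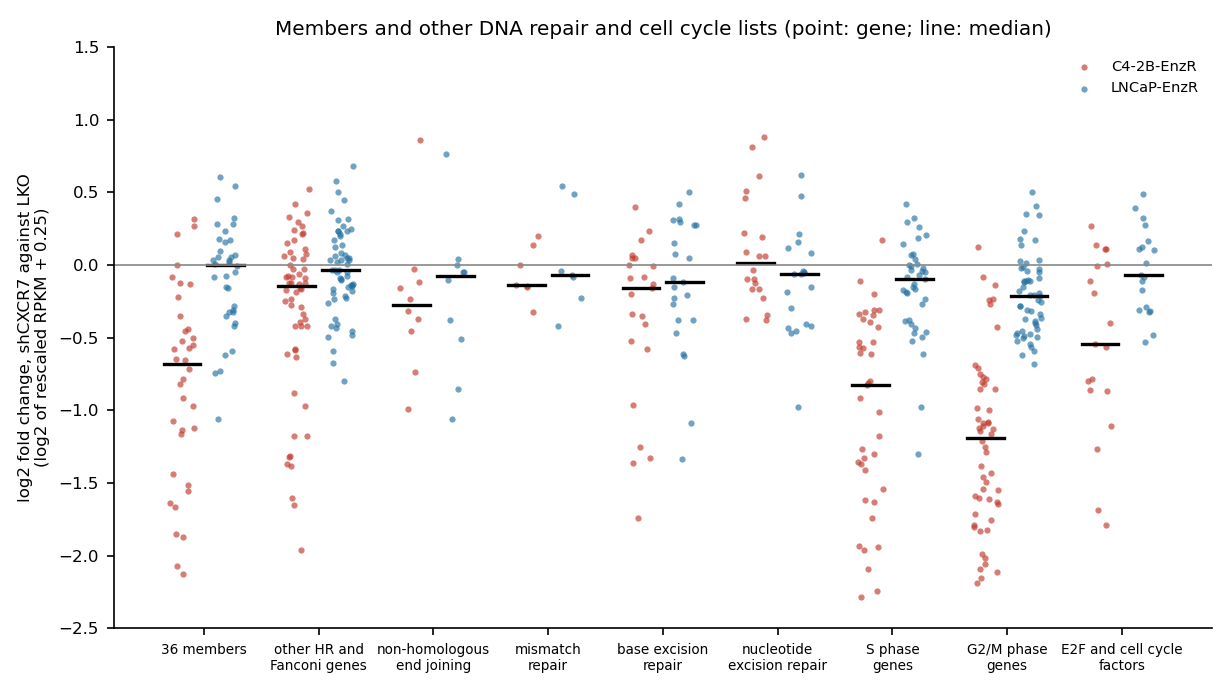
Log2 fold change (y axis, log2 of rescaled RPKM + 0.25) between shCXCR7 and LKO of each tested gene (points) of the 36 members and of 8 other lists (x axis), with a line for the median, in red for C4-2B-EnzR and blue for LNCaP-EnzR. In C4-2B-EnzR the medians are -0.68 for the members, -0.83 for S phase genes and -1.19 for G2/M phase genes, and in LNCaP-EnzR they are 0.0, -0.09 and -0.21.

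Lists of cell cycle genes moved with the members in C4-2B-EnzR. Over all genes the shares that fell and rose were 19.3% and 19.3% in C4-2B-EnzR, and 18.7% and 14.4% in LNCaP-EnzR. Of 39 S phase genes that are not members, 28 fell and 0 rose in C4-2B-EnzR (limma, 33 and 0 at an unadjusted p under 0.05, and 33 and 0 with voom), and their median log2 fold change was -0.83. Of 54 G2/M genes, 49 fell and 0 rose there (50 and 0 at an unadjusted p under 0.05, and 50 and 0 with voom), and their median was -1.19. In LNCaP-EnzR 9 of the S phase genes fell and 1 rose, and 16 of the G2/M genes fell and 2 rose. Without shCXCR7 replicate 3 these counts were 13 and 3, and 17 and 5, against 21.0% and 20.0% of all genes. In C4-2B-EnzR without LKO replicate 1, 35 of the S phase and 51 of the G2/M genes fell, against 20.5% of all genes. The largest S phase changes in C4-2B-EnzR were those of CDC45, which starts replication forks (-2.29), the ribonucleotide reductase subunit RRM2 (-2.24) and thymidylate synthase TYMS (-2.09). The largest G2/M changes were those of GTSE1 (-2.19), AURKB (-2.16) and FAM64A (-2.11). Of 19 E2F and other cell cycle transcription factors 12 fell and 1 rose in C4-2B-EnzR, among them MYBL2 (-1.79), E2F7 (-1.69) and FOXM1 (-1.27), and 2 fell and 1 rose in LNCaP-EnzR.

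The summed level of the 36 members had the same order as these lists over the C4-2B-EnzR LKO libraries. In these it was 258, 311 and 348 RPKM in replicates 1, 2 and 3, and 189, 204 and 188 with shCXCR7. The S phase sum was 438, 561 and 661 RPKM in the same LKO libraries and 307, 331 and 298 with shCXCR7, and the G2/M sum was 1082, 1354 and 1667 against 728, 780 and 662. LKO replicate 1 is thus the lowest and replicate 3 the highest control library on all 3 sums, and all 3 LKO libraries are above all 3 shCXCR7 libraries. The lists of other DNA repair genes had this order of LKO libraries too, such as nucleotide excision repair at 335, 348 and 361 RPKM. The luminal list had the reverse order, at 1181, 1169 and 1141 RPKM. In LNCaP-EnzR the members summed to 162, 157 and 163 RPKM with LKO and to 153, 144 and 144 with shCXCR7. The S phase sum there was 306, 295 and 297 RPKM against 291, 279.9 and 256, and the G2/M sum was 600.0, 602 and 621 against 584, 568 and 510.2. The LNCaP-EnzR LKO libraries had a different order on each of the 3 sums. In the 6 control libraries rescaled together, 27 of the 39 S phase genes and 50 of the 54 G2/M genes were higher in C4-2B-EnzR. The share of all genes was 31.4%. The median log2 differences of these 2 lists were 0.76 and 1.27. What part the share of cells in S and G2 phase has in the members' levels was not tested.

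**Figure D5:**
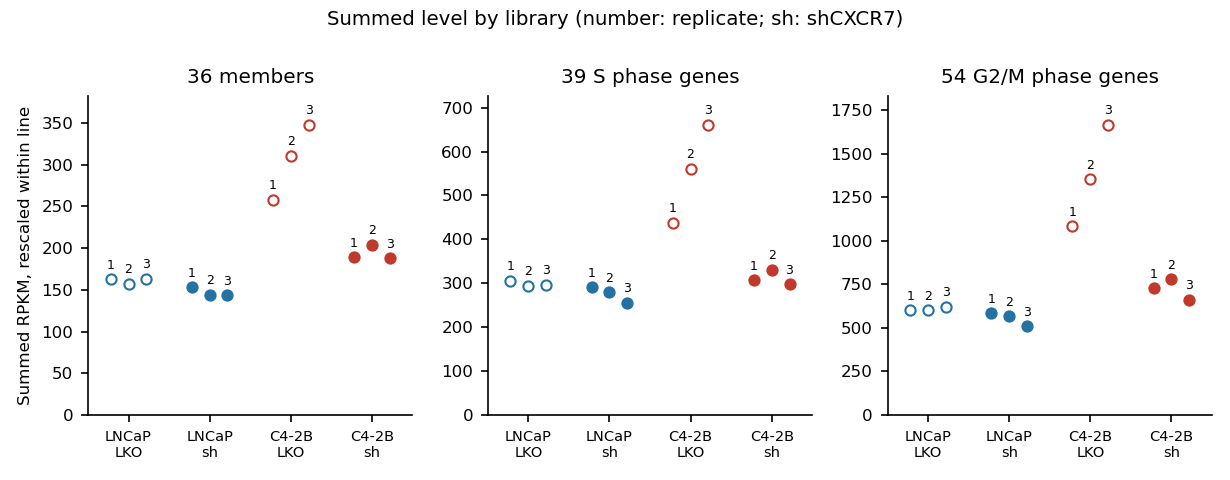
Summed RPKM, rescaled within each line (y axes, from 0), of the 36 members, 39 S phase genes and 54 G2/M genes in each library, by line and vector (x axes), with replicate numbers beside the points. In C4-2B-EnzR the sums of the members are 258 to 348 with LKO and 188 to 204 with shCXCR7, and in LNCaP-EnzR they are 157 to 163 and 144 to 153.

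Counting limits some of these values. Exons of 26 members overlap those of another gene in GENCODE 44, in 17 cases on the opposite strand only, and whether strand was used in counting is not given in the sources used here. FANCD2, BRCA1, RAD51AP1, RBBP8 and CHEK2 each have at least 1 pseudogene named after them, between which reads could have been split.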

How the data were processed

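RNA-Seq was analysed in 12 libraries, 3 for each of 4 groups taken from the sample titles. Per the labels, libraries were made with a NEBNext Ultra kit, and per the study's methods single-end reads were aligned to GRCh38 (hg38 in the submitters' notes) with STAR. The authors deposited 1 table of RPKM per gene from an in-house script. No source used here gives the annotation, the strand setting or any filter. RPKM divides by gene length and library total, so a library with many reads elsewhere has low values in expressed genes.

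Of 26475 lines, 32 held no value and 4 repeated a symbol, which left 26439 genes. Values were divided by median-of-ratios factors within each line (over the 6 LKO libraries for the control comparison). limma 3.58.1 in R 4.3.3 was fitted to log2(RPKM + 0.25), so folds of low genes are understated, with a variance trend, over the 14202 genes that reached 0.5 RPKM in 3 or more libraries, and p-values were adjusted over all of them by Benjamini-Hochberg. The authors tested counts with DESeq2, and limma was used here because the deposited unit is RPKM. Reads were recovered as whole multiples of the RPKM of 1 read (within 0.02 reads) for 25028 of 25028 genes above 0, and were used for depth and for voom. Fits were tested on simulated data.

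The members, roles and other lists were chosen with earlier results of these data known. Values per library are given for the member with the largest change per role and line, members that rose in C4-2B-EnzR, the 3 lowest adjusted p for the difference between lines, the 2 largest control differences, and BRCA1, BRCA2, ATM and CHEK1. For each other list the 3 largest called changes are named. Promoters came from RefSeq and gene positions from GENCODE 44. Alternatives changed the pseudocount, filter, scaling, moderation, tool, limits, samples, replicate block and library left out, and Python 3.11.15 was used for tables and plots. Between replicates the chi-square per degree of freedom ran from 1.63 to 19.89, and all 12 libraries were kept as separate. Depth was 6380395 to 9831807 reads.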

Additional observations from a re-analysis of the deposited data

Results flagged for a closer look

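The effect of CXCR7 knockdown differed between the lines for 17 members (limma interaction, Benjamini-Hochberg adjusted p under 0.05), each with a lower log2 fold change in C4-2B-EnzR than in LNCaP-EnzR. The differences were -1.06 for FANCA, -0.89 for FANCG, -0.95 for FANCM, -1.29 for FANCD2, -1.37 for FANCI and -1.28 for BRCA1. They were -0.67 for BARD1, -1.45 for BRCA2, -1.72 for XRCC2, -0.65 for XRCC3, -2.02 for RAD54L and -1.07 for RAD54B. They were -1.8 for EXO1, -1.91 for BLM, -1.09 for EME1, -0.93 for CHEK2 and -0.66 for TOPBP1. Of these, 9 (FANCG, FANCD2, FANCI, BRCA1, XRCC2, RAD54L, EXO1, BLM and EME1) were called under every alternative apart from the 2-fold limit and the values as deposited. Groups of 3 libraries are too small for a test of single outlying libraries.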

How the results depend on the processing

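No member changed direction past the threshold under any alternative run. In C4-2B-EnzR, 19 of the 25 falls were called under every alternative apart from the limit of 2-fold and adjusted p under 0.001 and, for FANCB, the filter at 1 RPKM, at which it was not tested. The 2-fold limit left 6 falls (background 1.81%) and 0 rises (background 1.21%). The count of rises there, 1, was 0 with no filter, with values as deposited, with no variance trend, in 1 fit of all 12 libraries and with the replicate block, and 2 with quantile normalization and with voom. Over all genes 2629 of 20217 rose with no filter, and 1978 to 3033 of 14202 under the other settings named here. Leaving out a library gave 19 to 29 falls and 0 to 1 rises, against 1918 to 2912 and 1768 to 2660 of all 14202 genes. In LNCaP-EnzR the 8 falls became 4 with no filter, 4 with no variance trend, 1 at the 2-fold limit and 0 with values as deposited (5 at an unadjusted p under 0.05), where the median of all genes was -0.278. Over all genes 2239 of 24950 fell with no filter and 2200 of 14202 with no variance trend. At the 2-fold limit 2.01% of all genes fell, and 2.56% with values as deposited. The 2 rises became 1, 3, 0 and 0 under these settings, and 1 with the replicate block. Over all genes 1578 of 24950 rose with no filter, and of 14202 genes 1832 rose with no variance trend. The 2-fold limit gave 229 rises over all genes, values as deposited 275 and the replicate block 1920. Leaving out a library gave 1 to 9 falls and 0 to 5 rises, against 13.2% to 21.0% and 9.63% to 20.0% of all genes. A subtraction of the background of shCXCR7 replicate 3, chosen after seeing the data, gave 8 and 2, against 3004 and 2679 of all 14202 genes. The 17 members that differed between lines became 1 (RAD54L) with values as deposited and 3 at the 2-fold limit, and 12 to 21 without a library. Of all 14202 genes, 33, 26 and 420 to 837 were lower by these. In the control libraries the 2 lower members became 1 with values as deposited, 0 at the 2-fold limit, 1 with the replicate block and 1 to 2 without a library, and the 27 higher became 11 at the 2-fold limit. Of all 14202 genes, 3478, 899, 4165 and 3724 to 4373 were lower by these, and 1204 were higher at the 2-fold limit. The cause was not tested.

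The replicate numbers did not pair the libraries: the correlations of same-numbered libraries' deviations were -0.096 to 0.042 in C4-2B-EnzR, -0.062 to 0.031 in LNCaP-EnzR and -0.054 to 0.012 in the controls. With the replicate block, C4-2B-EnzR had 23 falls (CHEK2, RBBP8 and the rise of RAD50 were lost) and LNCaP-EnzR 8 (FANCD2 and the rise of FANCM were lost, RMI1 was gained). Of all 14202 genes, 2131 and 2581 fell with it, and 451 were lower by the difference between lines. With the block, the difference between lines was called for 14 members (FANCA, XRCC3, CHEK2 and RAD54B were lost, RAD51AP1 was gained), and the control difference of RMI2 and RAD50 was lost. For single members, 613 fold changes in C4-2B-EnzR and 612 in LNCaP-EnzR kept their direction and side of the threshold, 58 and 66 lost the call, 12 and 12 gained one, and 26 in LNCaP-EnzR without a call moved by more than the spread between replicates. Depth limits BLM and FANCB: the lowest LNCaP-EnzR library held 13 reads of each, and the lowest C4-2B-EnzR library 17 of BLM and 14 of FANCB.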
